A study of Homo sapiens with 4 samples.

Results

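The C/EBP and RUNX genes examined here are CEBPA, CEBPB, CEBPD and CEBPG, which encode CCAAT/enhancer-binding proteins, and RUNX1, RUNX2, RUNX3 and CBFB, which encode the RUNX factors and their common partner. They are 8 of the 19974 protein-coding genes of the RefSeq gene table. Every region of histone H3 lysine 27 acetylation (H3K27ac) that the authors' annotation credited to these 8 genes by symbol was taken, near or far from the gene. That gave 0 of 604 regions in testosterone-treated cells and 20 of 19110 regions in control cells. H3K27ac is found at promoters and enhancers in use. It was measured by chromatin immunoprecipitation (IP) followed by sequencing in KGN cells, an established cell line from a human granulosa cell tumour. Testosterone-treated cells received 10 um testosterone (unit as in the labels) for 24 h, and control cells are labelled only as control, with no vehicle named. Both were grown in DMEM-F12 with 10% serum and fixed with formaldehyde. Each condition had 1 IP library and 1 input library, 4 libraries in all. With a single IP per condition the lists are described side by side, without a test.

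C/EBP proteins are basic leucine zipper factors that bind DNA in pairs. In granulosa cells, which surround the oocyte and make oestrogen and progesterone, CEBPB is known to be induced by the luteinizing hormone surge, and female mice that lack Cebpa and Cebpb together in granulosa cells do not ovulate. RUNX1, RUNX2 and RUNX3 bind DNA through a Runt domain, and CBFB, which does not itself bind DNA, strengthens that binding. RUNX1 and RUNX2 are also induced in granulosa cells before ovulation, and in mouse Runx1 is known to help keep the identity of fetal granulosa cells. Each RUNX gene has an upstream and a downstream promoter, which give proteins with different amino ends.

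The testosterone list held no region for any of the 8 genes, whereas the control list held at least 1 for every gene. CEBPB had 6 control regions, CEBPD and RUNX3 had 3 each, CEBPA, CEBPG and CBFB had 2 each, and RUNX1 and RUNX2 had 1 each. A promoter region, taken as a region within 1 kb of the gene start named by the authors' annotation, was found for 0 of 8 genes after testosterone and for 7 of 8 (87.5%) in control cells. RUNX3 was the gene without one. Over all protein-coding genes, 0.931% had a promoter region after testosterone and 41.0% had one in control cells. A region at any position was found for 2.41% of protein-coding genes after testosterone and 48.2% in control cells. Of the genes with a control promoter region, 157 also had one after testosterone, which is 1.92%. An absence from the testosterone list was therefore the usual outcome for a gene marked in control cells, and nothing particular to the 8 genes is read from it.

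**Figure D1:**
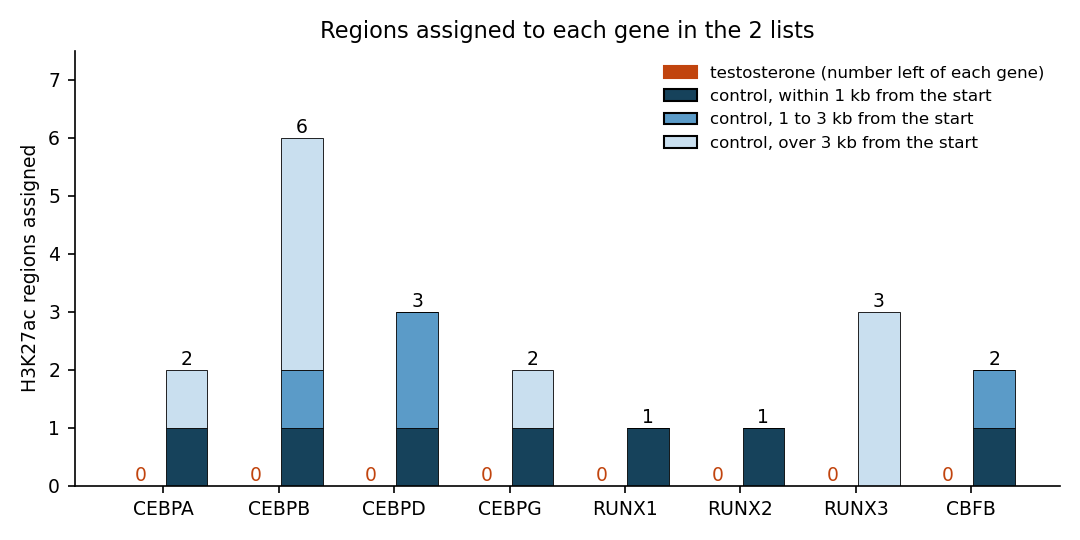
Number of H3K27ac regions (vertical axis) credited to each C/EBP and RUNX gene, with the testosterone number left of the control bar and control regions divided by distance from the gene start. All 8 testosterone numbers are 0, and the control bars range from 1 for RUNX1 and RUNX2 to 6 for CEBPB, with RUNX3 the only bar that has no part within 1 kb.

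None of the 20 control regions overlapped a testosterone region, where 0.884% of all control regions overlapped one by at least 1 bp. None of the 20 lay within 10 kb of a testosterone region either. The share of all control regions within 10 kb was not worked out. The nearest testosterone region was 69.9 kb from CBFB, at NOL3, and 77.0 kb from CEBPB, at UBE2V1. For the other 6 genes the gap ran between 1.27 Mb for RUNX3 and 6.36 Mb for CEBPD. The testosterone regions at NOL3 and UBE2V1 each lay at the promoter of their own gene, and each overlapped a control region there.

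The strength of a region is given as the authors' pileup, the number of IP fragments over its highest point (the summit), and as their fold, the pileup divided by the local background after 1 was added to each. Pileups in the control list were multiples of 0.9366 and were divided by it to give fragments. Local backgrounds were worked out from pileup and fold and stay on the scale of the pileup. Fragments and background printed together therefore do not give the control fold exactly. The 20 control regions had 10 to 49 fragments at the summit. The weakest region anywhere had 8 fragments in the testosterone list and 7 in the control list, and the median was 10 in the testosterone list and 17 in the control list. Each of the 20 regions thus had at least as many fragments as the median testosterone region. This was usual in the control list, where 3.79% of all regions had a pileup below that of the RUNX3 regions with 10 fragments. The lowest -log10 p was 4.92 in the testosterone list and 3.71 in the control list, and 15 of the 20 regions were at or above the testosterone value. The 5 below it were both CEBPA regions, the farther CBFB region, the RUNX2 region and the intronic RUNX3 region. Among all control regions, the share below the testosterone value lay between 9.46% and 25.5%. These are the places by -log10 p of the highest of the 5 and the lowest of the other 15. Depth was estimated from the lowest background of each list, divided by its shortest region and by the pileup step. On this estimate the testosterone IP had 1.03 times the depth of the control IP. The estimate takes the shortest region to be as long as a fragment, which was not checked. The lists hold only regions that passed the authors' caller, so the signal of the testosterone IP at these 20 positions is not known. The 95% exact Poisson intervals given for fragments cover counting error of the IP only. Local backgrounds are low too, with a median of 2.09 in the control list, and have no interval here. The error that they add to folds and to places by fold was not worked out.

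**Figure D2:**
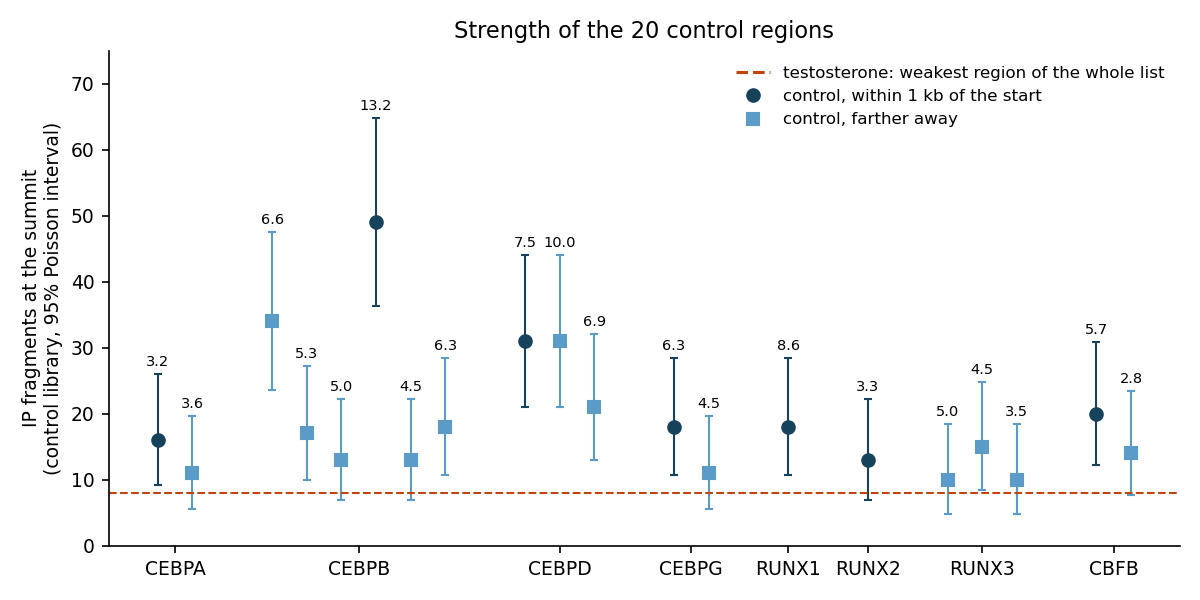
IP fragments at the summit (vertical axis) of the 20 control regions, with 95% Poisson intervals and the fold printed above each point; the dashed line is the weakest region of the whole testosterone list, at 8 fragments. Circles are regions within 1 kb of the start and squares are farther away; the CEBPB promoter region stands highest with 49 fragments and the lowest points are 2 RUNX3 regions with 10.

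Within the control list the C/EBP genes had more regions than the RUNX group and a higher median fold. The 4 C/EBP genes had 13 regions with a median fold of 6.26, between 3.20 and 13.2, and 11 to 49 fragments. The 4 genes of the RUNX group, CBFB included, had 7 regions with a median fold of 4.53, between 2.82 and 8.55, and 10 to 20 fragments. The ranges overlap, and a single library gives no spread to test them against. CEBPB and CEBPD held most of the C/EBP regions, with 6 and 3. CEBPA and CEBPG had 2 each, no more than CBFB with 2 and RUNX3 with 3. The 2 regions on the RUNX2 gene body that were credited to SUPT3H are not counted. Over all 20 regions the median fold was 5.17, against 4.99 for the whole control list, and 11 of the 20 lay above the list median. Regions over 3 kb from the start made up 9 of the 20 (45.0%), against 33.6% of all control regions.

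CEBPB, the C/EBP factor most linked to ovulation, had the strongest region of the 8 genes. Its gene body lies at chr20:50190583-50192690 (GRCh38), and its promoter region, chr20:50190238-50192321, ran over 2084 bp and covered 82.5% of the gene. The region had 49 fragments at the summit in control cells (95% Poisson interval 36.3 to 64.8) over a local background of 2.55, a fold of 13.2 and a -log10 q of 34.7. By fold it lay above 99.4% of all control regions, and 99.3% of them were narrower. CEBPB-AS1, a non-coding gene on the same stretch, also lies under this region. The summit was 79 bp upstream of the start at 50190734 used by the authors. The 250 bases before the upstream RefSeq start, shown because the region covers them, come from the RefSeq promoter table (GRCh38.p14), plus strand, 5′ to 3′, and hold none of the motif letters searched below.
CEBPB upstream start, chr20:50190333-50190582: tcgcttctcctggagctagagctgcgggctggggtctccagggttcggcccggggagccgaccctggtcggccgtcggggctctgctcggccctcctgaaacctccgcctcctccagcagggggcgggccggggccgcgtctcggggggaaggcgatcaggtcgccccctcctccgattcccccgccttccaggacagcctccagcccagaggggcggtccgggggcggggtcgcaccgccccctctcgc

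The other 5 CEBPB regions were weaker and spread over both sides of the gene. The strongest of them, chr20:50171848-50172909, lay 17.8 kb upstream over the non-coding gene LINC01273 and had 34 fragments (interval 23.5 to 47.5) and a fold of 6.65. Closer to the gene, a region 11.3 kb upstream had 17 fragments and a fold of 5.32, and a region 2.86 kb upstream had 13 fragments and a fold of 5.02. On the downstream side, regions 118 kb and 131 kb away had 13 and 18 fragments and folds of 4.54 and 6.26. Both far regions lay on or within 1 kb of the non-coding genes LINC01270 and LINC01271, so their credit to CEBPB is uncertain. As many as 6 control regions were credited to 2.02% of protein-coding genes, and as many as 4 over 3 kb away to 1.81%.

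When neighbouring control regions were joined at the stitching distance customary for super-enhancers, the CEBPB promoter fell into a stretch of 9 regions over 42.2 kb, chr20:50150087-50192321, with 4 CEBPB regions and 5 credited to its upstream neighbours TMEM189 and TMEM189-UBE2V1. By summed pileup times width this stretch was the 61st of 10805, so 0.565% of stretches were as large. As many as 9 regions were found in 1.45% of stretches. The stretch depends on the joining distance, and held 2 regions when those at most 5 kb apart were joined. In the testosterone list the only region within 100 kb of CEBPB was the UBE2V1 promoter region, with 11 fragments and a fold of 4.76. The control region that it overlaps had 36 fragments and a fold of 8.18.

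**Figure D3:**
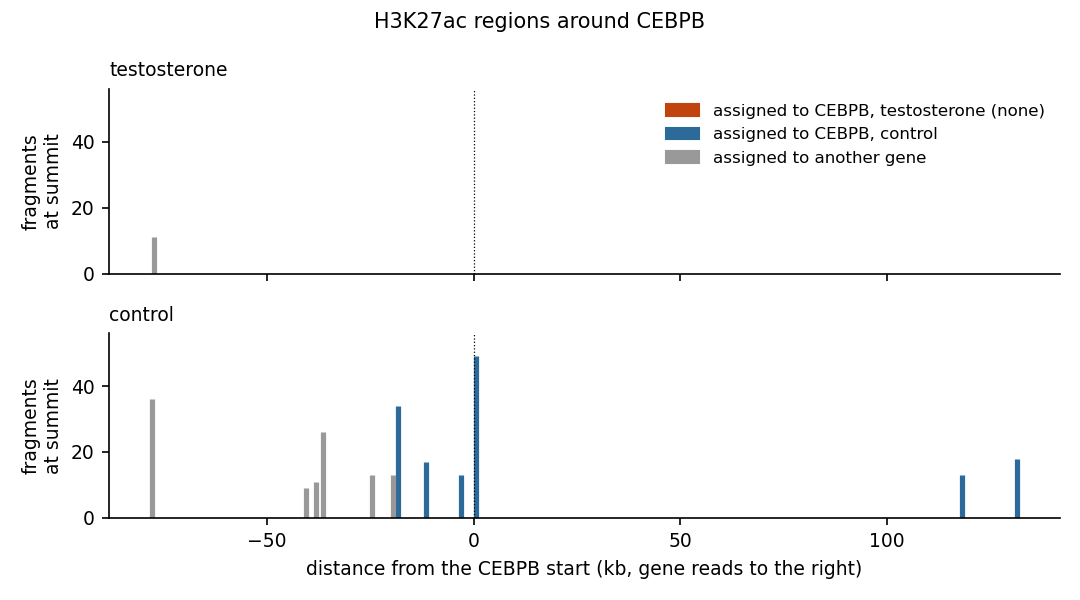
Position of H3K27ac regions around CEBPB (horizontal axis, kb from the gene start) against IP fragments at the summit (vertical axis), testosterone above and control below; coloured bars are credited to CEBPB and grey bars to other genes. The testosterone panel holds 1 grey bar of 11 fragments, and the control panel holds 6 CEBPB bars, the highest of 49 fragments at the start.

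CEBPD, which is induced early in acute inflammatory responses, had 3 control regions side by side on or next to its short gene (chr8:47736913-47738164, minus strand). Together they spanned 2.45 kb, a stretch larger by summed pileup times width than all but 7.16% of stretches. The middle region had 31 fragments (interval 21.1 to 44.0) over a background of 1.99 and a fold of 10.0, above 96.5% of control regions. The region at the RefSeq 5′ end also had 31 fragments, but over a background of 3.0, so its fold was 7.51. The third, at the 3′ end, had 21 fragments (interval 13.0 to 32.1) and a fold of 6.89. It lay almost wholly beyond the gene and covered 0.160% of the gene body. The authors' start, 47739086, lies upstream of the RefSeq 5′ end, so 2 of these regions are classed between 1 and 3 kb from the start, although 3 of 3 touch the RefSeq gene body. SPIDR, a DNA repair gene, ends within 1 kb of the 2 downstream regions.

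CEBPA, known for myeloid and fat cell differentiation, and CEBPG, a C/EBP factor that dimerizes with ATF4 and with other C/EBP proteins, are neighbours on chromosome 19. Both promoter regions were wide, and the CEBPA one had the lower fold. The CEBPA region, chr19:33302188-33303157, was 970 bp wide with 16 fragments (interval 9.15 to 26.0) over a background of 4.0, a fold of 3.20. By fold it exceeded 4.47% of control regions, by -log10 p 5.66% and by pileup 42.5%. The CEBPG region, chr19:33373886-33374829, was 944 bp wide with 18 fragments (interval 10.7 to 28.4) over a background of 1.86, a fold of 6.26 that exceeded 73.6%, against 54.6% by pileup. The fragment intervals overlap, and the backgrounds, which have no interval, differ more than the fragments do. The CEBPA region also touches the non-coding gene CEBPA-DT, which lies on its upstream side. Each gene had 1 more control region. That of CEBPA lay 5.79 kb downstream of the start with 11 fragments and a fold of 3.61, and that of CEBPG lay 17.7 kb downstream, in PEPD, with 11 fragments and a fold of 4.51.

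The control regions within 1 kb of RUNX1 and RUNX2, regulators of blood and bone formation, lay at downstream starts of these genes. RUNX1 (chr21:34787801-35049302, minus strand) is 262 kb long and had 1 region, chr21:34889024-34889364, 0.334 kb upstream of the authors' start at 34888690 and 160 kb from the RefSeq 5′ end of the gene. It had 18 fragments (interval 10.7 to 28.4) over a background of 1.09 and a fold of 8.55, above 92.2% of control regions by fold and 54.6% by pileup. CEBPG had as many fragments, and the fold of RUNX1 was higher through the lower background. That background, 1.0877, was close to the lowest of the whole control list, 1.0869.

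RUNX2 had 1 region of low fold. It lay at chr6:45422746-45423091, 169 bp inside the authors' start and 94.4 kb from the RefSeq 5′ end, with 13 fragments (interval 6.92 to 22.2) over a background of 3.0. Its fold of 3.29 exceeded 5.68% of control regions, and its pileup exceeded 21.1%. On the RUNX2 gene body (chr6:45328330-45551082, plus strand) 2 more control regions were credited to SUPT3H, a gene of the SAGA acetyltransferase complex that starts inside RUNX2, with 29 and 24 fragments and folds of 5.63 and 5.87.

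RUNX3, known for T cell and neuronal development, had 3 regions and none within 1 kb of a start. The intronic region, chr1:24933001-24933284, lay 3.12 kb upstream of the authors' downstream start with 10 fragments (interval 4.80 to 18.4) and a fold of 3.46. It lies over RUNX3-AS1, a non-coding gene inside RUNX3. The others lay 60.0 kb and 123 kb upstream of the gene, with 15 fragments and a fold of 4.53, and with 10 fragments and a fold of 4.96. Genes of like length with a control promoter region had a median of 1 control region on the body, where RUNX1 had 1, CBFB had 2 and RUNX2 had 3. RUNX3 had 1 on its body, but has no promoter region itself and is not comparable with that group.

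**Figure D4:**
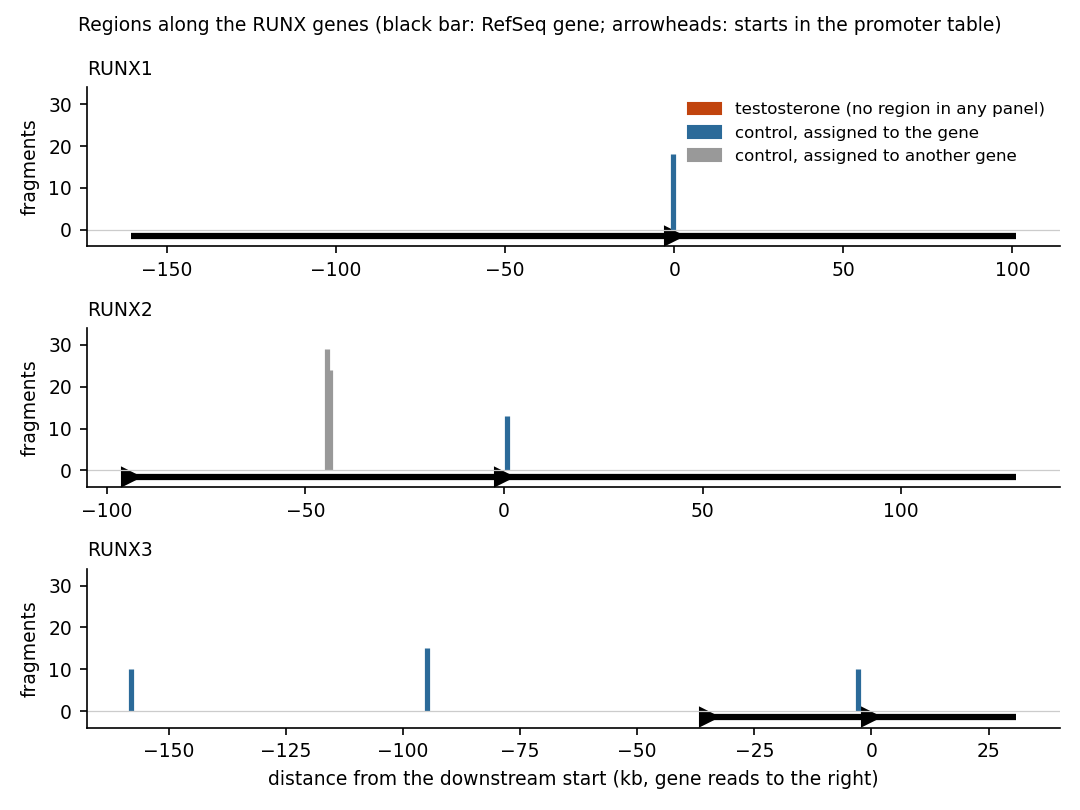
Control regions along RUNX1, RUNX2 and RUNX3 (horizontal axis, kb from the downstream start, gene reading to the right) with IP fragments at the summit (vertical axis); arrowheads are starts in the promoter table, and no testosterone region fell in any panel. The RUNX1 and RUNX2 regions, with 18 and 13 fragments, stand at the downstream start, and no bar stands at the upstream start of RUNX2 or RUNX3.

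The 250 bases before each start are shown because RUNX2 has a start with a control region within 1 kb and a start without, which can be set beside the starts of RUNX3, both without, and the RUNX1 start, with a region. They are from the RefSeq promoter table (GRCh38.p14), read 5′ to 3′ on the strand of the gene. The control region lay 471 bp from the RUNX2 downstream start and 325 bp from the RUNX1 downstream start, and 2.73 kb from the RUNX3 downstream start. The upstream starts of RUNX2 and RUNX3 were 49.1 kb and 31.7 kb from any control region. Capitals mark matches to motif letters that do not overlap one another here. The C/EBP core was searched as TTGCNNAA. The RUNX core was searched as TGTGGT, which appears as ACCACA when it lies on the opposite strand. The CCAAT box appears as ATTGG when it lies on the opposite strand.
RUNX2 upstream start, chr6:45328080-45328329, plus strand: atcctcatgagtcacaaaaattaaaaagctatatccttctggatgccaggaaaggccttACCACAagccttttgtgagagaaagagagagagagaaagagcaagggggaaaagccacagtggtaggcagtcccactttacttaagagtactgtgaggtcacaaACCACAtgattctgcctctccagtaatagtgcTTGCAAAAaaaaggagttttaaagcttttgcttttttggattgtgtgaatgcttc
RUNX2 downstream start, chr6:45422025-45422274, plus strand: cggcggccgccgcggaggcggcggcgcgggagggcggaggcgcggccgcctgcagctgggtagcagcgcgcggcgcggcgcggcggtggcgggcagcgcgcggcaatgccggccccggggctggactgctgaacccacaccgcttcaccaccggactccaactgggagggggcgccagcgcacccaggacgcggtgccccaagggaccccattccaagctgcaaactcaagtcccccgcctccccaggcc
RUNX3 upstream start, chr1:24965011-24965260, minus strand: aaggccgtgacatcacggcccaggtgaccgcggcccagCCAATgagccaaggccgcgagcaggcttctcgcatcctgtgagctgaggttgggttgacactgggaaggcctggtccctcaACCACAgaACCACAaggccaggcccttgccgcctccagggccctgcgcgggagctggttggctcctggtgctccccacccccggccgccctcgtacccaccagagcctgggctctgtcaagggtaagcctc
RUNX3 downstream start, chr1:24930277-24930526, minus strand: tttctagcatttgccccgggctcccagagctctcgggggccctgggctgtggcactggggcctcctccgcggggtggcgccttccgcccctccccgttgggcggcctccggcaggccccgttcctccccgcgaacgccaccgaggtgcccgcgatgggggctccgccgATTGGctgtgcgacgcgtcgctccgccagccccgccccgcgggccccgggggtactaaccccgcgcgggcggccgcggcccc
RUNX1 downstream start, chr21:34888700-34888949, minus strand: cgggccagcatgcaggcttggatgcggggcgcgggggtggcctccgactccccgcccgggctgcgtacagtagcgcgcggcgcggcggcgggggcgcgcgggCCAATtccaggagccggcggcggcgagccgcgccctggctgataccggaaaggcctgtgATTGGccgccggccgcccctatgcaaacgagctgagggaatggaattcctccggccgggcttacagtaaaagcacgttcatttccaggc

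The windows searched ran from 250 bases before to 50 after the start, on both strands. The RUNX2 upstream window held 4 RUNX cores, with their first bases at -191, -87, +17 and +25 from the start, and 1 C/EBP core at -55. The RUNX3 upstream window held 2 RUNX cores, at -131 and -123. No RUNX or C/EBP core was found in the windows of the downstream starts of RUNX1, RUNX2 and RUNX3 or in any window of CEBPA, CEBPB and CEBPG. Among all 35116 windows in the table, 13.1% held a RUNX core, 1.31% held 2 or more and 0.125% held 3 or more, and 10.5% held a C/EBP core. CCAAT was found once in the RUNX3 upstream window, at -212, and once in the RUNX3 downstream window, at -82. The CEBPB windows overlap and share 1 CCAAT site, at +3 of the upstream and -245 of the downstream start. CCAAT was found in 2 places in the windows of RUNX1 and of the upstream start of CEBPG. It occurred in 34.6% of all windows, in 2 or more places in 10.8%. The cAMP response element TGACGTCA, in 1.85% of windows, was found in no window of these genes. A match is a description of letters and not evidence of binding.

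The upstream windows of RUNX2 and RUNX3 shared a run of 18 bases with 2 RUNX cores, in capitals, whose first bases are 8 apart. It was found in 2 of 35116 windows, these same ones, and any pair of RUNX cores spaced in this way was found in 6 windows (0.0171%). The run was picked as the longest that these 2 windows share, and the spacing was taken from it. Both counts therefore include the 2 windows by choice and are only descriptive. In RUNX2 it lies at chr6:45328344-45328361, from base +15 after the start, and in RUNX3 at chr1:24965126-24965143, from base -133.
shared run: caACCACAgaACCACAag

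The base composition of the starts also differed. The RUNX2 upstream window was 42.7% G and C, against 76.0% for its downstream window, and the RUNX3 upstream window was 66.3%, against 76.0% for its downstream window. The RUNX1 window was 72.0%, the CEBPB windows 77.0% and 76.7%, and the CEBPA window 80.7%, with a median of 58.7% over all windows. When all windows on chromosomes 1 to 22 and X were divided into 10 groups of equal size by GC content, the share with a region within 1 kb was 0.0858% in group 1 (lowest GC), 1.14% in group 7 and 0.515% in group 10 after testosterone. In control cells it was 2.43% in group 1 and 63.2% in group 10. The RUNX2 upstream window belongs to group 2, where 4.43% of windows had a control region. The RUNX3 upstream window belongs to group 8, where 54.7% had one, and the RUNX3 downstream window to group 10, so both were without a region where most windows of like GC content had one. Whether GC content has a part in these marks was not tested.

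**Figure D5:**
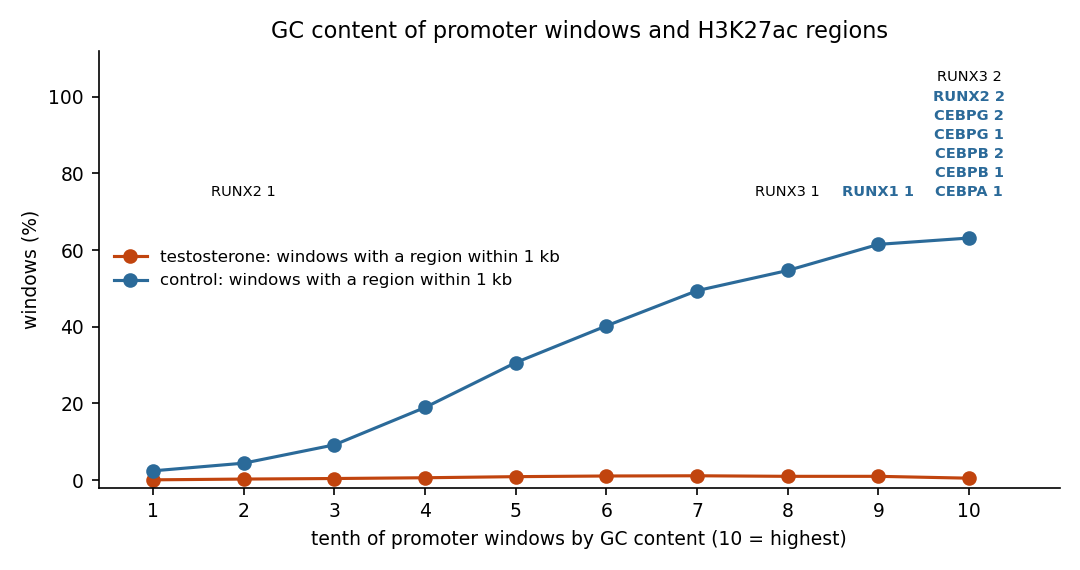
Share of promoter windows with an H3K27ac region within 1 kb (vertical axis, %) by GC content in 10 groups of windows (horizontal axis), for testosterone and control; gene names with the number of the start stand above their group, in bold where the window has a control region within 1 kb. The control line reaches 63.2% in group 10 and the testosterone line stays at or below 1.14%, and RUNX2 start 1 is the only named window below group 8.

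CBFB (chr16:67029149-67101058, plus strand) had a promoter region and a second region of low fold. The promoter region, chr16:67029160-67029815, had 20 fragments (interval 12.2 to 30.9) and a fold of 5.67, above 65.4% of control regions. The second, 2.46 kb from the RefSeq 5′ end and 1.66 kb from the start used by the authors, had 14 fragments (interval 7.65 to 23.5) over a background of 4.0, and its fold of 2.82 exceeded 1.05% of control regions, whereas its pileup exceeded 28.4%. Within 100 kb of CBFB lay 12 control regions, against 10 for CEBPB and 1 to 5 for the other genes. The number usual for all genes was not worked out. The same surroundings held 1 testosterone region, that of NOL3, with 10 fragments and a fold of 5.10.

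Genes of the same pathways were read in 4 lists of 73 genes. None of the 73 had a testosterone region at any position, where 2.41% of all protein-coding genes did. In control cells 41 of 73 (56.2%) had a promoter region, beside 41.0% of all protein-coding genes. The strongest promoter region of a marked gene had a median fold of 5.87, against 5.86 over all marked protein-coding genes and 6.26 over the 7 marked C/EBP and RUNX genes.

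The list of C/EBP relatives and partners in leucine zipper dimers includes CEBPZ by its symbol alone. In this list 8 of 14 genes (57.1%) had a control promoter region, beside 41.0% of all protein-coding genes, with a median fold of 7.53. The strongest by fold was that of ATF3, a stress-induced factor, with 34 fragments and a fold of 8.18. ATF4, the factor of the integrated stress response, followed with 24 fragments and a fold of 7.97. Regulators of C/EBP proteins (kinases, cAMP coactivators, ubiquitin ligase components) had one in 13 of 16 genes (81.2%), beside the same 41.0%, with a median fold of 5.90. GSK3B, a kinase that phosphorylates C/EBP proteins, had 35 fragments and a fold of 10.9, and FBXW7, a ubiquitin ligase subunit, had 19 fragments and a fold of 9.0.

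RUNX cofactors and corepressors had a control promoter region in 13 of 17 genes (76.5%), beside 41.0% of all protein-coding genes, with a median fold of 6.01. The strongest by fold were those of the Hippo pathway coactivators that can bind RUNX proteins. YAP1 had 26 fragments and a fold of 10.6, and WWTR1 had 48 fragments and a fold of 7.66. Genes reported downstream of C/EBP or RUNX factors in granulosa cells had a control promoter region in 7 of 26 (26.9%), beside the same 41.0%, and no test of any of these shares was made. The strongest by fold, though not by fragments, was ADAMTS1, a protease of the ovulating follicle, with 15 fragments and a fold of 7.21. Next by fold came SPHK1, a sphingosine kinase, with 24 fragments and a fold of 5.87. In that list 8 of 26 genes had a control region at any position, where 48.2% of all protein-coding genes did. The 18 without one included PTGS2, AREG, EREG, PGR, LHCGR, STAR and CYP19A1. In the other lists CEBPZ, DDIT3 and HIPK2 had a region within 1 kb that the authors' annotation credited to the neighbours NDUFAF7, MBD6 and TBXAS1.

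Likeness between genes was measured as the distance over 4 control values (number of regions, summed width, strongest promoter fold, regions over 3 kb away), each as log2 of the value plus 1 and scaled over the 8189 genes with a control promoter region. A like gene also had to have as many testosterone regions as the gene it was compared with, so its lack of them is not a finding. Each value comes from 1 control library. The genes most like CEBPB were BHLHE40, PITX1 and FOXL2, at distances of 0.469, 0.588 and 0.782. BHLHE40, a circadian repressor, had 6 regions and a promoter fold of 15.3, and FOXL2, the factor that maintains granulosa identity, had 5 and a promoter fold of 10.7. PITX1, a homeobox factor, had 6 regions and a promoter fold of 14.4. The other genes had closer neighbours, at distances of 0.0122 to 0.148. These were CAD, RTN4RL1 and CYP1B1 for CEBPA, CAPN15, MAP3K11 and SNAPC2 for CEBPD, and HHEX, ZDHHC7 and GADD45A for CEBPG. For RUNX1 they were OLFML2B, VEZT and F8, for RUNX2 MAP3K7, TBCCD1 and CATSPERZ, and for CBFB PTPRJ, TALDO1 and DOCK5. RUNX3 has no promoter region and could not be placed.

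Markers of the labelled cell type were read in the same way. Of 6 granulosa markers, 0 had a testosterone region and 2 had a control region, FOXL2 with 5 and the steroidogenic regulator NR5A1 with 2. Over all protein-coding genes the share with a region at any position was 2.41% after testosterone and 48.2% in control cells. AMH, FSHR, CYP19A1 and INHA had none in either list. Control regions were also credited to 1 of 2 theca markers (INSL3), 2 of 3 oocyte markers (GDF9 and ZP3) and 1 of 6 blood markers (SPI1), and no testosterone region to any of these. The cells are labelled as the KGN line, and a region credited to a gene can belong to its neighbour. No presence of another cell type is read from these counts.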

How the data were processed

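H3K27ac was measured in 1 IP and 1 input library per condition. Per the submitters' processing notes, Bowtie2 2.0, MACS2, ChIPseeker and bedtools were used and the builds hg38 and mm10 are named. The caller's settings: not given in the sources used here. Regions were called once for each condition, per the file headers, which pair each IP with the input of that condition. The deposited pileup is a signal of fragments at the summit, the deposited fold is a ratio of pileup to local background, and the deposited significance columns hold -log10 p and -log10 q values. For testosterone, the headers of the significance columns were lost, and the columns were identified by order and values. Annotation of regions to genes and distances are the authors'.

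Pileups were divided by their step (1.0 for testosterone, 0.9366 for control), and 100% and 99.95% of values were whole within 0.0075. Depth was inferred from the lowest backgrounds and shortest regions, since library totals were not used here. Shares of regions and genes, places within a list, stretches and distances were computed with Python 3.11.15, pandas 2.3.3 and scipy 1.17.1, and the code was tested on simulated data. Gene positions and promoter windows are from RefSeq (GRCh38.p14), and 6 of the 8 genes have windows in the promoter table. The genes, lists, naming rule and likeness measure were chosen with earlier results of these data known. Named were the 8 genes, the 2 strongest genes of each list by promoter fold and the 3 genes most like each marked gene. Neighbouring genes, unmarked list genes and those credited with extra regions were named after their values were seen. No test between conditions was made. Alternatives were stricter -log10 q or fold, a control list reduced by -log10 p or by number, other promoter, distal, overlap and joining distances, assignment by gene body, and ranks by -log10 p or pileup.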

Additional observations from a re-analysis of the deposited data

How the results depend on the processing

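The testosterone counts of 0 could not change under stricter or merged lists. The alternatives that could have raised them, counting any region on or within 10 kb of a gene body and counting regions within 1 kb or 10 kb as overlapping, also gave 0. Of 43 alternative control counts, 31 stayed within 1.5 times the reported count and 12 moved, 11 of them with stricter lists. At a -log10 q of at least 5, 5 genes had a region, with 10 regions, 3 of them over 3 kb away. At a -log10 q of at least 10, 3 genes had a region and 3 a promoter region, with 5 regions, 1 of them over 3 kb away. With the control list reduced to its 604 strongest regions by fold, 1 gene had a region and 1 a promoter region, with 1 region, that of the CEBPB promoter, and 0 over 3 kb away. The shares of all protein-coding genes and of all regions at these cuts were not worked out. The falls are therefore not read as particular to these genes. The stretch at CEBPB held 2 regions when regions up to 5 kb apart were joined, against 9 at the customary stitching distance and at 25 kb. Places within the list depend on the measure: of 40 alternative places by -log10 p or pileup, 36 moved, by up to 44.8 percentage points, and 3 crossed the middle of the list.

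No paired analysis was possible because each condition had 1 IP library. Leaving out a replicate was not run, for the same reason. Treatment, library and calling cannot be told apart. Control regions of 10 to 14 fragments have intervals that reach below the 8 fragments of the weakest testosterone region.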

Other observations

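Some genes of the lists had many control regions away from their promoters, and they are named here after their values were seen. The share of all protein-coding genes with as many was not worked out for them. A region over 3 kb away can belong to a neighbouring gene. TLE3, a Groucho-type corepressor that RUNX proteins recruit, had 0 testosterone regions and 12 control regions, 8 of them over 3 kb from the start, with a highest fold of 12.0. CBFA2T3, a corepressor of the family fused to RUNX1 in leukaemia, had 0 testosterone and 8 control regions, 5 of them over 3 kb away. CRTC1, a cAMP-responsive coactivator of CREB, had 0 testosterone and 8 control regions, 6 of them over 3 kb away. CYP11A1, the enzyme that makes pregnenolone from cholesterol, had 0 testosterone regions and 7 control regions, all 7 over 3 kb from the start and with folds of at most 4.39.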
